A study of Mus musculus with 4 samples.

Results

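Ch25h, Cyp7b1, Hsd3b7, Gpr183, Abca1, Abcg1, Mylip and Apoe are genes of oxysterol formation and sensing and of cholesterol efflux, and were followed through 4 groups of cells from fibrotic and control mouse livers. They are 8 of the 25149 genes counted. They were chosen by their measured CCl4 and corn oil levels in these same cells, so every difference between CCl4 and corn oil mice given for them below is a description without a test. Tests are given for differences between groups of cells of the same mice. The choice compared CCl4 with corn oil mice and not groups of cells, but it used levels of these same cells. The p-values of these tests are therefore not independent of the choice.

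Carbon tetrachloride (CCl4) is a solvent that injures hepatocytes and produces liver fibrosis when dosed repeatedly. CCl4 mice were wild-type males aged 8 to 10 weeks that received intraperitoneal injections of 10 µl per g of CCl4 diluted 1 part to 9 parts of corn oil, 2 times a week over 5 weeks, and corn oil mice were wild-type males of the same age given the oil alone on the same schedule. All were killed 48 h after the last injection, their livers were digested with pronase and collagenase, hepatocytes were pelleted at 50 × g, and single nonparenchymal cells were counted as UMIs (unique mRNA molecules) on a BD Rhapsody cartridge. There were 2 CCl4 and 2 corn oil libraries with 1 mouse each, so SDs over n = 2 are wide, and an exact permutation test of 2 against 2 cannot give a p below 0.333.

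Ch25h adds a hydroxyl group to cholesterol and makes 25-hydroxycholesterol, an oxysterol that restrains sterol synthesis and activates the nuclear liver X receptors (LXR). Cyp7b1 converts it to the ligand that draws GPR183-bearing immune cells through tissue, and Hsd3b7 inactivates that ligand. LXR in turn drives the transporters Abca1 and Abcg1, which load cholesterol on to lipoproteins, the ubiquitin ligase Mylip, which limits the uptake of cholesterol, and Apoe, the lipoprotein that carries cholesterol away.

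RefSeq holds promoters for 6 of the 8 genes. The 250 bases before the transcript start are shown for Ch25h, the gene whose values are described first, and for Abca1 and Mylip, a pair of LXR target genes whose levels went different ways in endothelial cells. They are given 5′ to 3′ on the strand of each gene in GRCm38.p6, with TATAAA in capitals: Ch25h at chr19:34475149-34475398 on the minus strand, Abca1 at chr4:53159896-53160145 on the minus strand and Mylip at chr13:45389492-45389741 on the plus strand.
Ch25h: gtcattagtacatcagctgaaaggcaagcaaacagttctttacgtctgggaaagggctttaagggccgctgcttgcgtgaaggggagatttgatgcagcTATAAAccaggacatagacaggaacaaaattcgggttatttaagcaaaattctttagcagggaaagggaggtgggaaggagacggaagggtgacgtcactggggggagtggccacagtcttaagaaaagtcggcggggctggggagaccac
Abca1: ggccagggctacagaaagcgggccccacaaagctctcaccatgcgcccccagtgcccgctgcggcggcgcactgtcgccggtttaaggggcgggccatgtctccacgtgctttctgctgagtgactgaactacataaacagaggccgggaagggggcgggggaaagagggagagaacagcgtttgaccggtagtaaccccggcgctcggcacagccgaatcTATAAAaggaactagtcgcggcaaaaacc
Mylip: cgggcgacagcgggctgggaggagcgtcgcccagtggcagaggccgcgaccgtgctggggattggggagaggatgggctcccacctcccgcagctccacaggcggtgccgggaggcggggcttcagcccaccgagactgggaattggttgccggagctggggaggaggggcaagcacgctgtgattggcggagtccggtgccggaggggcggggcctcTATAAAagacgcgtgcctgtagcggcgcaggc
TATAAA began at position -29 in Abca1 and at -32 in Mylip, and at -151 in Ch25h, counted from the start as +1. The 300-base windows of all 32851 RefSeq promoters, from 250 bases before to 50 after the start, were searched on both strands, and 13.6% held TATAAA. A pair of AGGTCA motifs 4 bases apart, an exact form of the LXR response element, was in 0.0152% of all promoters, and a single AGGTCA in 16.3%. The NF-kB motif GGNNTTTCC was in 5.82% and the AP-1 motif TGANTCA in 7.81%. None of these exact letters occurred in the windows of the 6 genes. Variants with other letters were not searched, so the lack of an LXR response element cannot be read from this. The interferon-response core TTTCNNTTT, found in 10.6% of all promoters, occurred in Gpr183 and in 2 of the 3 Apoe windows.

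Cells were sorted into gates by marker UMIs. An endothelial cell had at least 5 UMIs of Kdr, Ptprb and Egfl7 together, a stellate cell at least 5 of Reln, Colec11 and Lrat, a Kupffer cell at least 5 of Clec4f, and a monocyte at least 3 of Chil3, F13a1 and Vcan with at most 2 of Clec4f. The cells kept, with at least 200 genes and at most 25% mitochondrial UMIs, numbered 6141 and 5621 in CCl4 1 and CCl4 2 and 6852 and 7247 in corn oil 1 and corn oil 2. Between 5.03% and 12.2% of them fell into more than 1 gate and were dropped. Pairs of libraries shared 48 to 74 cell indices. The endothelial gate held 3085 and 2795 CCl4 cells and 5287 and 5370 corn oil cells, the stellate gate 462 and 144 against 179 and 145, the Kupffer gate 228 and 225 against 217 and 222, and the monocyte gate 911 and 1349 against 43 and 23. Cells were deeper in CCl4 mice in the first 3 gates, for example with median UMIs of 8074 and 7967 in CCl4 stellate cells against 4420 and 4237 in corn oil ones. Levels below are given as CPM, the UMIs of a gene per 1000000 UMIs summed over the cells of that gate and mouse.

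In the endothelial, stellate and Kupffer gates the gate's own marker list summed to 14926 CPM or more in every mouse, and each other cell type's list to at most 1357 CPM. Each own list includes the genes that define the gate, so its sum was partly set by the gating. The monocyte gate of the corn oil mice went against its name. Its few cells carried 2936 to 3129 CPM of monocyte markers, against 8477 to 9729 CPM in CCl4 mice, and 2831 to 3962 CPM of Kupffer markers, against 397 to 422 CPM in CCl4 mice. The monocyte gene Ly6c2 stood at 53.3 and 42.6 CPM there, against 596 and 827 CPM in the CCl4 mice. Stellate markers reached 5829 CPM in corn oil 1. Every CCl4 against corn oil value in the monocyte gate therefore compares cells of different makeup, and its part in the values was not tested.

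Ch25h, the enzyme that makes 25-hydroxycholesterol, was far higher in CCl4 mice in endothelial and stellate cells. Endothelial cells had 84.8 and 42.1 CPM in CCl4 mice, against 5.27 and 5.63 CPM in corn oil mice. Both CCl4 mice lay above both corn oil mice, and the pooled level was 12.1-fold higher, with a fitted log2 fold change of 3.49 ± 0.36 (SE). Stellate cells had 148 and 112 CPM in CCl4 mice, from 719 UMIs, and 0 UMIs in either corn oil mouse. Against the 3 UMIs that a count of 0 allows over the corn oil group, 1.93 CPM, the CCl4 level was at least 72.2-fold higher. The table of CCl4 1 carries another analysis date than the other 3 tables, and CCl4 2 alone lay above both corn oil mice in both gates.

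The macrophage gates had little Ch25h. Kupffer cells held 11 and 1 UMIs in CCl4 mice, or 3.52 and 0.315 CPM, and none in corn oil mice. The monocyte gate had 15.6 and 2.41 CPM in CCl4 mice and 6.46 and 0 CPM in corn oil mice, so the groups overlapped. In 1 fit over all gates, with the mouse as a block, stellate minus endothelial cells differed in CCl4 mice by 1.05 ± 0.33 (log2, SE, adjusted p = 0.0245). That call was lost without CCl4 2 (0.75, adjusted p = 0.181) and with DESeq2 (1.31, adjusted p = 0.148). Kupffer minus endothelial cells differed by -4.98 ± 0.56 (adjusted p = 2.35e-05) and Kupffer minus stellate cells by -6.03 ± 0.56 (adjusted p = 6.25e-06) in the same mice. In CCl4 mice the order from high to low was therefore stellate, endothelial, monocyte and Kupffer, with monocyte minus Kupffer not called (2.05 ± 0.73, adjusted p = 0.0525).

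**Figure D1:**
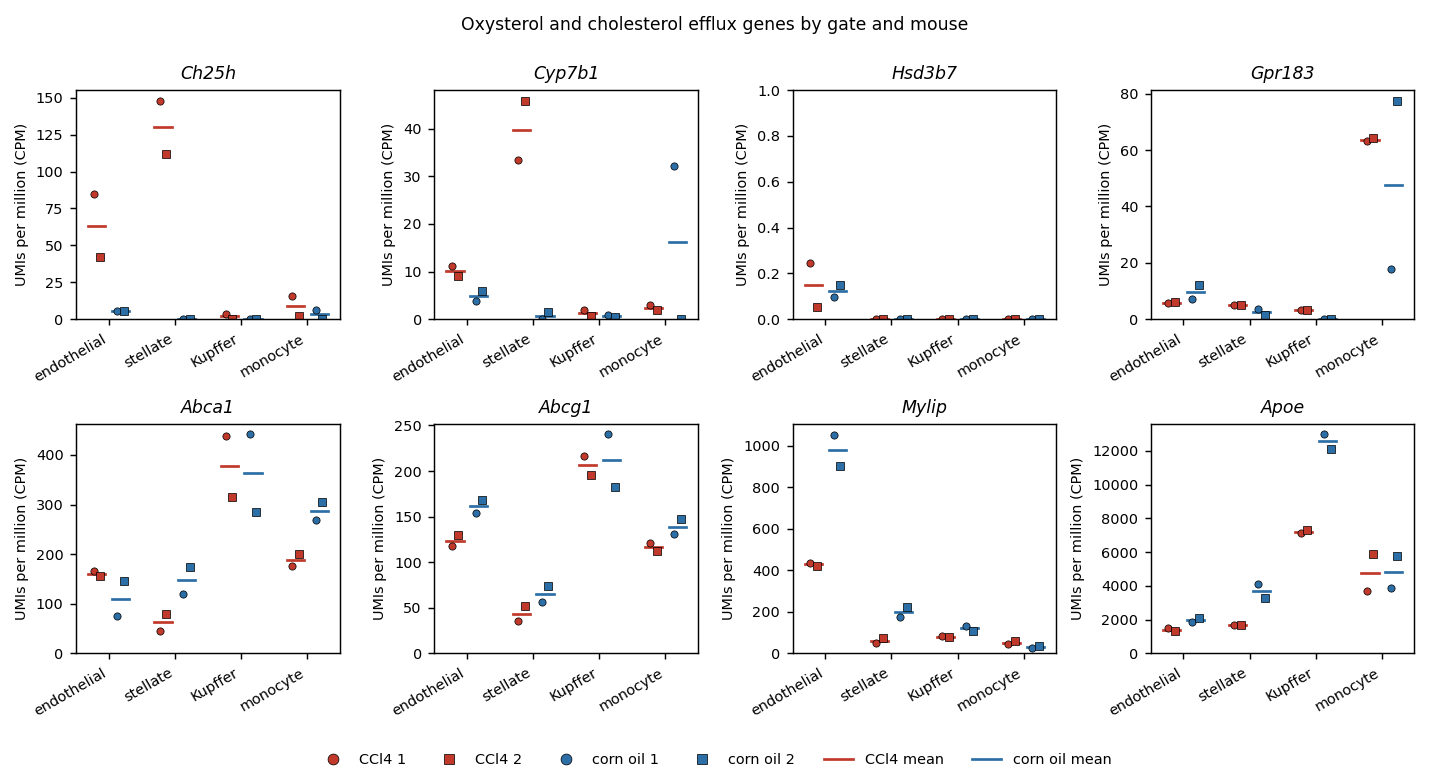
Level of each gene (CPM, linear axes from 0, which differ between panels) in 4 gates, with CCl4 mice in red left of corn oil mice in blue, mouse 1 as circles, mouse 2 as squares and bars for the mean of 2 mice. Ch25h and Cyp7b1 stand out in CCl4 stellate cells, at 112 to 148 and 33.5 to 45.8 CPM, and Mylip in corn oil endothelial cells, at 903 to 1053 CPM.

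Ch25h came from a minority of cells. In CCl4 mice 480 of 3085 and 288 of 2795 endothelial cells had a Ch25h UMI, or 15.6% and 10.3%, against 1.76% and 1.43% in corn oil mice. With every cell thinned to 3000 UMIs, which left out 1 and 4 CCl4 cells and 215 and 731 shallower corn oil cells, the shares were 9.99% and 6.20% in CCl4 mice against 1.22% and 1.01% in corn oil mice. In the CCl4 stellate gate 57 of 462 and 23 of 144 cells had a UMI, or 12.3% and 15.97%, and 9.41% and 11.2% after thinning. The 5% of stellate cells with the most Ch25h held 85.7% and 75.2% of its UMIs, and single cells reached 56 and 26 UMIs.

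Other immune cells of the CCl4 mice served for comparison. Conventional dendritic cells held 1 Ch25h UMI in 110 cells of CCl4 1 and 0 in 93 cells of CCl4 2, T and NK cells 0 in 43 and 5 in 63 cells, and macrophages with C1q genes outside the Kupffer gate 13 in 240 and 10 in 269 cells. These are 17.1 CPM or less, below the endothelial and stellate levels of either CCl4 mouse. Kupffer cells, whose median depth of 13570.5 and 14622 UMIs in CCl4 mice exceeded that of stellate cells, had a UMI in 2.63% and 0.444% of cells, and in 0.439% and 0% after thinning. In CCl4 1 the endothelial share lay above the stellate one while the CPM lay below it, so no order of those gates is read from the shares.

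**Figure D2:**
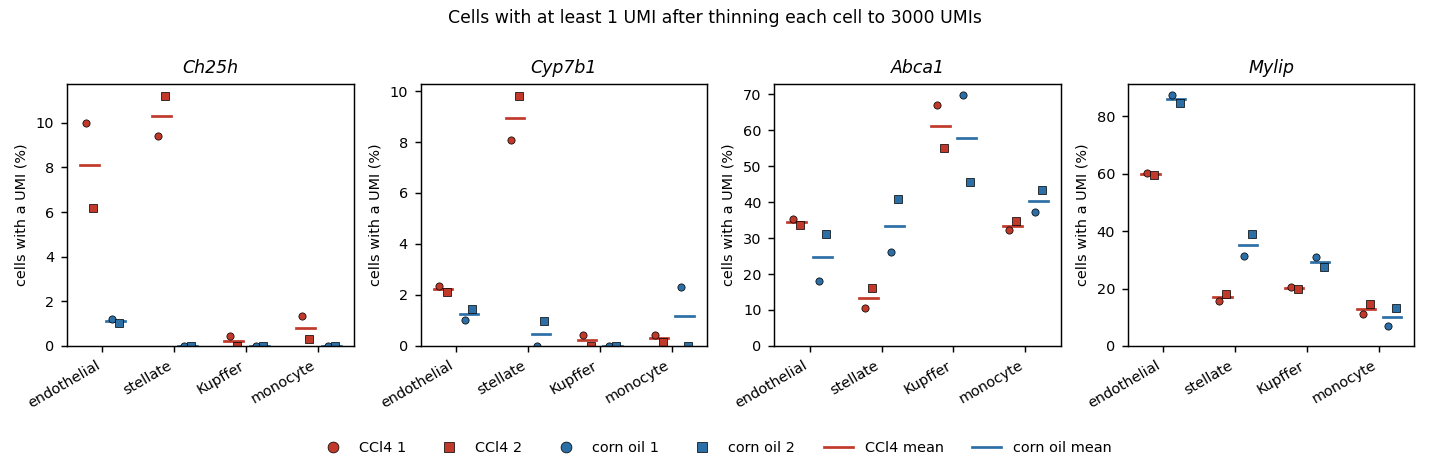
Share of cells with at least 1 UMI of Ch25h, Cyp7b1, Abca1 or Mylip (percent, axes from 0, which differ between panels) after thinning every cell to 3000 UMIs, by gate, with CCl4 mice in red left of corn oil mice in blue and bars for the mean of 2 mice. Ch25h was found in 9.41% and 11.2% of CCl4 stellate cells and in no corn oil stellate cell, while Mylip was found in 60.2% and 59.4% of CCl4 against 87.3% and 84.8% of corn oil endothelial cells.

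Within the stellate gate Ch25h lay in the contractile cells. Acta2 and Tagln encode smooth-muscle actin and transgelin and mark stellate cells that have become myofibroblasts. Cells with at least 5 UMIs of both together were set against cells with at most 1 UMI in the same mouse, which could be done in the 2 CCl4 mice, since the corn oil mice had only 11 and 6 high cells, below the 20 required. In CCl4 1 the high cells held 553 of the 582 Ch25h UMIs of the gate, or 95.02%, while holding 57.3% of all its UMIs. In CCl4 2 they held 134 of 137, or 97.8%, with 51.5% of all UMIs.

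The Ch25h level was 245 CPM in high and 24.2 CPM in low cells of CCl4 1, and 213 CPM in high and 7.93 CPM in low cells of CCl4 2. In both mice the high cells lay well above the low ones, with a log2 difference of 3.69 ± 0.27 (SE, adjusted p = 9.73e-10). A Ch25h UMI was found in 52 of 245 high and 1 of 128 low cells in CCl4 1, and in 21 of 61 high and 2 of 53 low cells in CCl4 2. High cells were deeper, with median UMIs of 9051 and 9789 against 7022 and 6460, and with the ranges set after thinning to 3000 UMIs the difference was 3.94 (adjusted p = 0.000103). Cyp7b1 was also higher in the high cells, by 1.31 ± 0.33 (adjusted p = 0.0169), at 39.4 and 70.0 CPM against 19.96 and 21.1 CPM. DESeq2 gave Cyp7b1 no adjusted p and called Ch25h alone. These were 2 of the 6 genes that passed the filter on low counts, against 4.83% of all 8164 genes called.

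The other 4 were not called between high and low stellate cells. Mylip had 39.8 and 49.3 CPM in high against 73.5 and 92.5 CPM in low cells, a log2 difference of -0.83 ± 0.25 (adjusted p = 0.056). It was called in 2 alternatives, with the scaling of DESeq2 (adjusted p = 0.0385) and with at most 15% mitochondrial UMIs (adjusted p = 0.0462). Abca1 differed by -0.53 ± 0.25, Abcg1 by -0.39 ± 0.30 and Apoe by -0.19 ± 0.11.

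The endothelial gate was divided by zone markers. Cells with at least 3 UMIs of Rspo3, Wnt9b, Wnt2 and Kit, genes of the endothelium around the central vein, and at most 1 of Efnb2, Dll4, Msr1 and Adam23, genes of the portal side, were set against cells with the reverse pattern in each of the 4 mice. The pericentral range held 100 and 115 CCl4 cells and 552 and 384 corn oil cells. Its makeup differed between CCl4 and corn oil mice. The sinusoidal genes Stab2 and Clec4g stood at 256 and 163 CPM and at 372 and 227 CPM in CCl4 mice. In corn oil mice they stood at 1427 and 1322 CPM and at 2327 and 2162 CPM. Lyve1, another sinusoidal gene, went the other way, at 1823 and 1607 CPM in CCl4 against 475 and 449 CPM in corn oil mice.

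Cyp7b1 was higher in the pericentral range in all 4 mice. It had 26.5 and 21.8 CPM in pericentral against 3.68 and 4.15 CPM in periportal cells of CCl4 mice, and 10.7 and 14.7 against 1.45 and 2.35 CPM in corn oil mice. The log2 difference was 2.66 ± 0.25 (adjusted p = 0.000712). It was called in every alternative run. Ch25h, with 335 and 52.7 CPM in pericentral against 39.6 and 29.7 CPM in periportal cells of CCl4 mice, did not pass the test (1.35 ± 0.57, adjusted p = 0.215), and in corn oil 2 the pericentral range was the lower one, at 2.56 against 8.54 CPM.

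Apoe was lower in the pericentral range, by -1.72 ± 0.30 (adjusted p = 0.0129, and 0.0715 without CCl4 2). It stood at 299 and 321 CPM against 1864 and 1603 CPM in CCl4 mice, and at 1138 and 1117 CPM against 2080 and 2257 CPM in corn oil mice. Mylip had 146 and 213 CPM in pericentral against 454 and 407 CPM in periportal cells of CCl4 mice, but 980 and 948 against 925 and 813 CPM in corn oil mice, and was not called over the 4 mice (-0.55 ± 0.28, adjusted p = 0.306). Whether the zones differed more in CCl4 mice, and the part of the different makeup of the pericentral range, was not tested. Of the 7 genes tested 2 were called, against 7.73% of all 11123 genes.

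**Figure D3:**
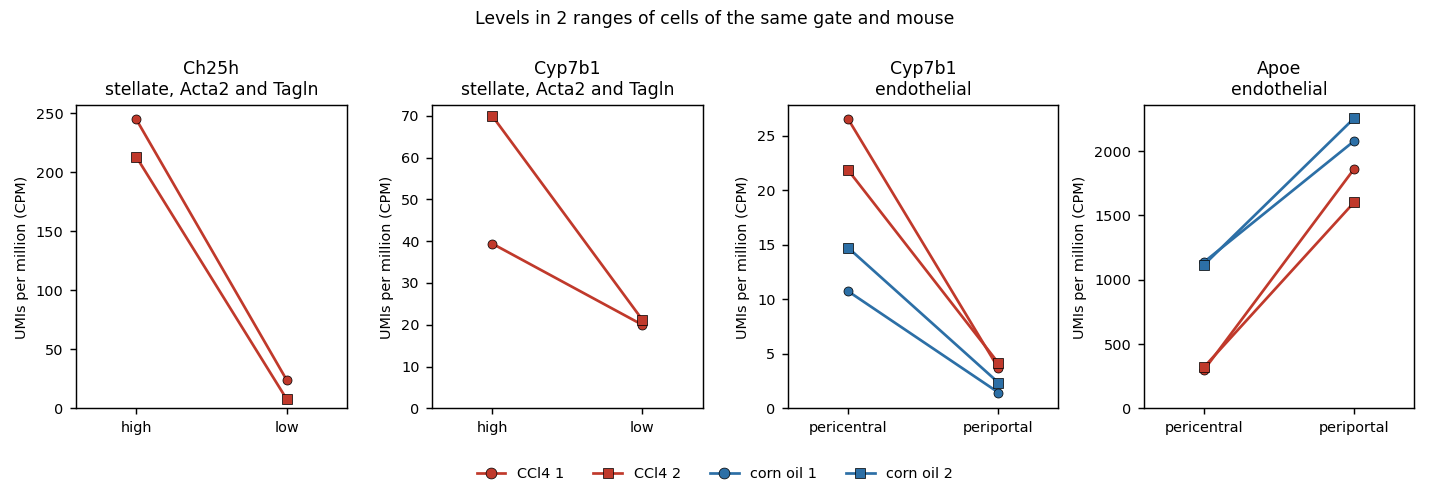
Levels (CPM, linear axes from 0, which differ between panels) in 2 ranges of cells of the same gate and mouse, joined by a line per mouse, with CCl4 mice in red and corn oil mice in blue. Ch25h had 245 and 213 CPM in high against 24.2 and 7.93 CPM in low stellate cells, Cyp7b1 is higher in pericentral endothelial cells of all 4 mice, and Apoe is lower there in all 4.

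Cyp7b1, which turns 25-hydroxycholesterol into the GPR183 ligand, was higher in both CCl4 mice than in both corn oil mice in the stellate and endothelial gates, as Ch25h was. Stellate cells had 33.5 and 45.8 CPM in CCl4 mice, against 0 and 1.47 CPM in corn oil mice. That is 188 UMIs against 1 UMI, a ratio of 56.7 with a 95% counting interval of 10.0 to 2250. Endothelial cells had 11.2 and 9.14 CPM in CCl4 mice and 3.89 and 5.86 CPM in corn oil mice, with no overlap and a log2 fold change of 1.01 ± 0.28. After thinning, 8.10% and 9.79% of CCl4 stellate cells had a Cyp7b1 UMI, against 0% and 0.971% of corn oil ones.

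Stellate minus endothelial cells differed in Cyp7b1 by 1.898 ± 0.42 in CCl4 mice (adjusted p = 0.00284), a call lost without CCl4 1 (adjusted p = 0.0665) and without CCl4 2 (adjusted p = 0.144). Kupffer cells had at most 1.92 CPM. In the monocyte gate corn oil 1 stood apart at 32.3 CPM, from 20 UMIs in 4 cells, while corn oil 2 had none and CCl4 mice had 2.93 and 1.91 CPM. The differences of the corn oil monocyte gate from the other 3 gates in Cyp7b1, between 2.15 and 5.13 on the log2 scale, turned negative without corn oil 1. Hsd3b7, which inactivates the ligand, was hardly counted: the endothelial gate held 6 and 1 UMIs in CCl4 mice and 3 and 4 in corn oil mice, and the other 3 gates held none. It passed no filter on low counts and was not tested.

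Gpr183, the receptor, was highest of the 4 gates in the monocyte gate. The monocyte gate had 63.3 and 64.1 CPM in CCl4 mice, against 17.8 and 77.4 CPM in corn oil mice, so the groups overlapped. Monocyte minus endothelial cells differed by 3.51 ± 0.25 in CCl4 mice (adjusted p = 1.95e-07) and by 2.05 ± 0.38 in corn oil mice (adjusted p = 0.00112). The corn oil value turned to -0.45 when cells with more than 1 UMI of another gate's markers were left out, which also dropped corn oil 2, left with 18 cells. Without corn oil 2 alone it was 1.22 (adjusted p = 0.0464). Kupffer cells had 3.20 and 3.15 CPM in CCl4 mice, from 10 UMIs each, and 0 UMIs in both corn oil mice. Against 3 UMIs over the corn oil group the CCl4 level was 4.30-fold higher, with the counting error of the 20 CCl4 UMIs left out. Monocyte markers summed to 454 to 479 CPM in CCl4 and 198 to 281 CPM in corn oil Kupffer cells, and their part in these values was not tested. Endothelial cells had 5.76 and 5.92 CPM in CCl4 mice and 7.28 and 12.0 CPM in corn oil mice. Stellate cells held 20 and 6 UMIs in CCl4 mice and 3 and 1 UMIs in corn oil mice.

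Abca1, the transporter that moves cholesterol to lipid-poor apolipoprotein, went different ways by gate. Endothelial cells had 165 and 155 CPM in CCl4 mice, against 74.7 and 145 CPM in corn oil mice. The groups did not overlap, but corn oil 2 came close to the CCl4 mice while corn oil 1 lay far below, and the log2 fold change was 0.48 ± 0.29. Stellate cells had 45.2 and 79.4 CPM in CCl4 mice, against 119 and 175 CPM in corn oil mice, a log2 fold change of -1.33 ± 0.31. In Kupffer cells the groups overlapped, at 439 and 316 CPM in CCl4 mice and 442 and 285 CPM in corn oil mice. The monocyte gate had 175 and 201 CPM in CCl4 mice, against 268 and 306 CPM in corn oil mice.

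Kupffer cells had the most Abca1 of the 4 gates in CCl4 mice. Kupffer minus endothelial cells differed by 1.34 ± 0.31 (adjusted p = 0.00253, and 0.0712 without CCl4 1) in CCl4 mice and by 1.86 ± 0.32 (adjusted p = 0.00033) in corn oil mice. Stellate minus endothelial cells differed by -1.46 ± 0.34 (adjusted p = 0.00363) in CCl4 mice, and by 0.33 ± 0.34 (adjusted p = 0.489) in corn oil mice. The CCl4 call was lost without CCl4 1 (-0.98, adjusted p = 0.188).

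Abcg1, the transporter that passes cholesterol to high-density lipoprotein, differed less. Endothelial cells had 117 and 130 CPM in CCl4 mice, against 154 and 168 CPM in corn oil mice, and stellate cells 35.5 and 51.6 CPM against 56.1 and 73.3 CPM. Both CCl4 mice were below both corn oil mice in each, with log2 fold changes of -0.45 ± 0.13 and -0.65 ± 0.28. In Kupffer cells the groups overlapped, with a log2 fold change of -0.10 ± 0.16. Stellate cells had the least Abcg1 of the 4 gates, with stellate minus endothelial differences of -1.59 ± 0.19 in CCl4 mice (adjusted p = 2.49e-05) and -1.44 ± 0.21 in corn oil mice (adjusted p = 0.000134).

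Mylip, the ubiquitin ligase that limits cholesterol uptake, was lower in CCl4 mice in 3 gates. Endothelial cells, where it was highest, had 435 and 423 CPM in CCl4 mice, against 1053 and 903 CPM in corn oil mice. The groups were far apart, with a log2 fold change of -1.25 ± 0.14. Stellate cells had 51.0 and 71.2 CPM in CCl4 mice, against 174 and 223 CPM in corn oil mice, and Kupffer cells 81.5 and 78.5 CPM against 130 and 109 CPM. No group overlapped in these gates. In the monocyte gate the order was the reverse, with 43.6 and 57.0 CPM in CCl4 mice and 25.8 and 34.8 CPM in corn oil mice, from only 16 and 9 corn oil UMIs.

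Mylip set endothelial cells apart from the other gates in both groups of mice. Stellate minus endothelial cells differed by -2.88 ± 0.20 in CCl4 mice (adjusted p = 1.61e-07) and by -2.41 ± 0.20 in corn oil mice (adjusted p = 7.86e-07). Kupffer minus endothelial cells differed by -2.32 ± 0.19 and -2.97 ± 0.20, and monocyte minus endothelial cells by -3.03 ± 0.19 and -5.10 ± 0.27, each in CCl4 and corn oil mice. These 6 calls were kept in every alternative run.

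Apoe, the lipoprotein that leaves with cholesterol, was lower in CCl4 mice in the same 3 gates. Kupffer cells had 7137 and 7300 CPM in CCl4 mice, against 12999 and 12141 CPM in corn oil mice. This is a log2 fold change of -0.86 ± 0.17, with the mice of each group close together. Stellate cells had 1680 and 1693 CPM in CCl4 mice, against 4134 and 3250 CPM in corn oil mice, and endothelial cells 1481 and 1296 CPM against 1825 and 2076 CPM. In the monocyte gate the groups overlapped, at 3665 and 5865 CPM in CCl4 mice and 3893 and 5753 CPM in corn oil mice. Apoe is also made by hepatocytes, whose markers summed to 308 to 492 CPM in CCl4 and 464 to 638 CPM in corn oil Kupffer cells, with all 11 counted in each group, and the part of hepatocyte RNA in the Apoe values was not tested.

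Kupffer cells exceeded endothelial cells in Apoe by 2.48 ± 0.24 in CCl4 mice (adjusted p = 1.85e-06) and by 2.75 ± 0.24 in corn oil mice (adjusted p = 8.5e-07). Within the Kupffer gate, cells with at least 3 UMIs of Trem2, Gpnmb, Spp1 and Cd9, genes of lipid-associated and scar-associated macrophages, were set against cells with none. The high cells were deeper, with median UMIs of 14274 and 16125 against 8226 and 7132 in CCl4 mice. Apoe had 8189 and 8234 CPM in high against 5598 and 6225 CPM in low cells of CCl4 mice, and 13028 and 13732 against 13357 and 12483 CPM in corn oil mice. It differed by 0.25 ± 0.09 over the 4 mice (adjusted p = 0.231). The value was called without corn oil 1 (0.36, adjusted p = 0.0103). It was also called in the CCl4 mice alone, which were the only ones with 20 cells in each range when cells with other gates' markers were left out (0.45, adjusted p = 0.000397) or when the ranges were set after thinning (0.90, adjusted p = 1.09e-13). Of the 4 genes tested edgeR called 0, with 1 at an unadjusted p under 0.05 and 0 by DESeq2, against 2.26% of 6858 genes. After thinning Abcg1 was called as well, at -1.03.

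The contrast that chose the genes was also run over all genes of each gate, called at an adjusted p under 0.05 in edgeR. The members' counts in it were partly set by the choice, so they are no test of the members. In the endothelial gate 1 of 7 members tested was called higher and 1 lower, against 2.85% of 13388 genes higher and 2.57% lower. In the stellate gate 2 of 6 were called higher and 3 lower, against 5.29% and 4.91% of 8978 genes. In the Kupffer gate 0 of 4 were called higher and 2 lower, against 7.55% and 7.79% of 9918 genes. In the monocyte gate 0 of 6 were called, with 1 at an unadjusted p under 0.05 and 1 by DESeq2, against 2.40% of 10191 genes higher and 3.06% lower. Leaving out a library moved these counts to 4 in the endothelial gate without corn oil 2, to 2 and 3 in the stellate gate without CCl4 1 and CCl4 2, to 0 in the Kupffer gate without either CCl4 mouse (2 at an unadjusted p under 0.05 each time) and 1 without corn oil 1, and to 2 in the monocyte gate without corn oil 2. Since these values chose the genes, nothing is read from the counts.

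Over the 6 pairs of gates, 33 of 42 comparisons of the 7 members tested were called in CCl4 mice and 31 of 42 in corn oil mice. The share of all 12629 genes called is given beside each count. In CCl4 mice 5 of 7 members were called for stellate minus endothelial cells (42.3% of all genes), 6 for Kupffer minus endothelial (53.9%), 5 for monocyte minus endothelial (55.7%), 6 for Kupffer minus stellate (48.9%), 6 for monocyte minus stellate (53.8%) and 5 for monocyte minus Kupffer (33.4%). In corn oil mice the numbers were 4 (36.0%), 7 (47.5%), 5 (39.7%), 5 (41.1%), 5 (30.2%) and 5 (23.6%) in the same order.

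Genes with a pattern most like that of Ch25h were sought by Pearson correlation of log2(CPM + 1) over the 16 sums of 4 gates in 4 mice, among 6745 genes. The sums of a mouse share its library, so no p is given. Adamts4, a secreted protease of matrix proteoglycans, came first with r = 0.94. It had 158 and 78.1 CPM in CCl4 endothelial cells against 7.87 and 4.31 CPM in corn oil ones, and 64.0 and 48.3 CPM in CCl4 stellate cells against 0 and 2.93 CPM in corn oil ones. The next were Mmadhc, of vitamin B12 handling (0.88), Gm12840 (0.87), Uba1, the ubiquitin-activating enzyme (0.85), and Gtf2e2, a subunit of a general transcription factor (0.85). Among the other members r was 0.87 for Cyp7b1, 0.38 for Hsd3b7, 0.18 for Gpr183, 0.07 for Mylip, -0.48 for Abcg1, -0.63 for Abca1 and -0.79 for Apoe.

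The surrounding pathways were read from lists without the 8 genes, by the edgeR fit of each gate. These lists were also chosen with earlier results of these data known, so the adjusted p-values of their genes are not independent of the choice. Sterol synthesis and uptake is the pathway that 25-hydroxycholesterol restrains. Of 26 genes tested 2 were called higher in CCl4 endothelial cells, among them Sqle, and none lower, against 2.85% of all genes higher. In CCl4 Kupffer cells 3 of 23 were called higher, among them Mvd and Dhcr7, and none lower, against 7.55% of all genes higher. DESeq2 called 3 of the 26 endothelial genes and 0 of the 23 Kupffer genes, with 5 Kupffer genes at an unadjusted p under 0.05. The Kupffer number also changed when some libraries were left out. Dhcr7, which makes cholesterol in the last step of synthesis, had 21.4 and 24.6 CPM in CCl4 against 8.10 and 10.3 CPM in corn oil Kupffer cells (log2 1.26 ± 0.29, adjusted p = 0.022). In stellate and monocyte cells edgeR called 0, with 5 and 4 at an unadjusted p under 0.05 and 0 and 0 by DESeq2. The list medians were -0.0035, -0.26, 0.43 and -0.41 in endothelial, stellate, Kupffer and monocyte cells, beside medians of all genes between -0.011 and 0.040.

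LXR receptors and targets were split in direction. Of 17 or 18 genes tested per gate, 1 rose (Nr1h3, an LXR itself) and 3 fell in endothelial cells, 2 and 4 in stellate cells, 2 and 5 in Kupffer cells, and 1 and 4 in the monocyte gate, with medians of -0.05, -0.35, -0.12 and -0.16. Pltp, which transfers phospholipid between lipoproteins, fell in all 4, for example to 190 and 187 CPM in CCl4 stellate cells, against 483 and 353 CPM in corn oil ones. Smpdl3a, a phosphodiesterase induced by LXR, fell in 3, and had 76.0 and 63.9 CPM in CCl4 against 158 and 170 CPM in corn oil endothelial cells (log2 -1.28 ± 0.16, adjusted p = 0.00974). Lpl, lipoprotein lipase, went the other way. It had 963 and 953 CPM in CCl4 against 176 and 218 CPM in corn oil stellate cells (2.23 ± 0.20, adjusted p = 0.000598), and 4393 and 4233 against 1202 and 1082 CPM in Kupffer cells (1.86 ± 0.16, adjusted p = 0.000434).

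Of the other oxysterol and bile acid enzymes, 2 of 4 fell in stellate cells (Cyp27a1 and Scp2), 1 of 4 in Kupffer cells (Cyp27a1) and 0 of 9 in endothelial and 0 of 4 in monocyte cells, with 4 and 0 at an unadjusted p under 0.05 and 1 and 0 by DESeq2. Cyp27a1, the mitochondrial enzyme that makes 27-hydroxycholesterol, had 5.84 and 16.4 CPM in CCl4 against 64.1 and 52.8 CPM in corn oil stellate cells (-2.67 ± 0.44, adjusted p = 0.00701), and 14.4 and 14.5 against 49.0 and 46.8 CPM in Kupffer cells (-1.79 ± 0.22, adjusted p = 0.00175). Of the cholesterol storage and transport genes, Cd36, the scavenger receptor for fatty acids and oxidised lipoprotein, rose in Kupffer cells to 1249 and 1195 CPM in CCl4 mice, against 255 and 279 CPM in corn oil mice (2.13 ± 0.16, adjusted p = 0.000215). Nceh1 rose and Osbpl9 fell there as well, Soat2 rose in endothelial cells, 0 of 18 were called in stellate cells (5 at an unadjusted p under 0.05 and 0 by DESeq2), and Cd36 fell in the monocyte gate (-2.50 ± 0.25, adjusted p = 0.0118). Sqle, Mvd, Nr1h3 and Soat2 had means under 10 CPM and were named after their values were seen.

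The lists of interferon-response and NF-kB response genes were read gate by gate in the same way. Of 21 interferon-response genes, 16 rose and none fell in the monocyte gate, with a median of 3.01, for example Rsad2 with 132 and 113 CPM in CCl4 against 1.61 and 0 CPM in corn oil cells. With either CCl4 library left out edgeR called 0 of the 19 or 20 tested there, with 15 and 17 at an unadjusted p under 0.05, and Kupffer and stellate markers differ between the groups in this gate as given above. In endothelial cells 3 of 21 rose and 1 fell (median 0.24), in stellate cells 4 of 18 rose (0.08), and in Kupffer cells 3 of 21 rose and 2 fell (0.26). The difference between gates was not tested. Of the NF-kB response genes, 3 of 15 rose in endothelial cells and 4 of 14 rose and 1 fell in stellate cells, among them the chemokine Ccl2, with 78.9 and 34.1 CPM in CCl4 against 10.6 and 9.76 CPM in corn oil endothelial cells (2.43 ± 0.40, adjusted p = 0.0235). In Kupffer cells 1 rose (Ccl2) and 3 fell (Nfkbia, Birc3 and Icam1), with medians of 0.42, 0.61 and -0.62 in the 3 gates, and in the monocyte gate 1 of 16 fell (Il6, also under 10 CPM).

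Immediate early genes, which cell isolation induces, fell in 10 of 16 cases in Kupffer cells with a median of -1.11, beside the lower Mylip and Apoe there. Egr1 had 246 and 485 CPM in CCl4 against 1017 and 2027 CPM in corn oil Kupffer cells (-2.14 ± 0.37, adjusted p = 0.007). In endothelial cells 3 of 16 fell and 1 rose (median -0.75), in stellate cells 1 rose (0.32) and in the monocyte gate 2 rose (0.21). The part of the response to isolation in the members' values was not tested. Over all 7 lists, 18 genes were called in endothelial, 18 in stellate, 33 in Kupffer and 25 in monocyte cells. Without CCl4 1 these were 6, 1, 30 and 0, without CCl4 2 they were 8, 8, 18 and 0, and without corn oil 1 the stellate number was 28.

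**Figure D4:**
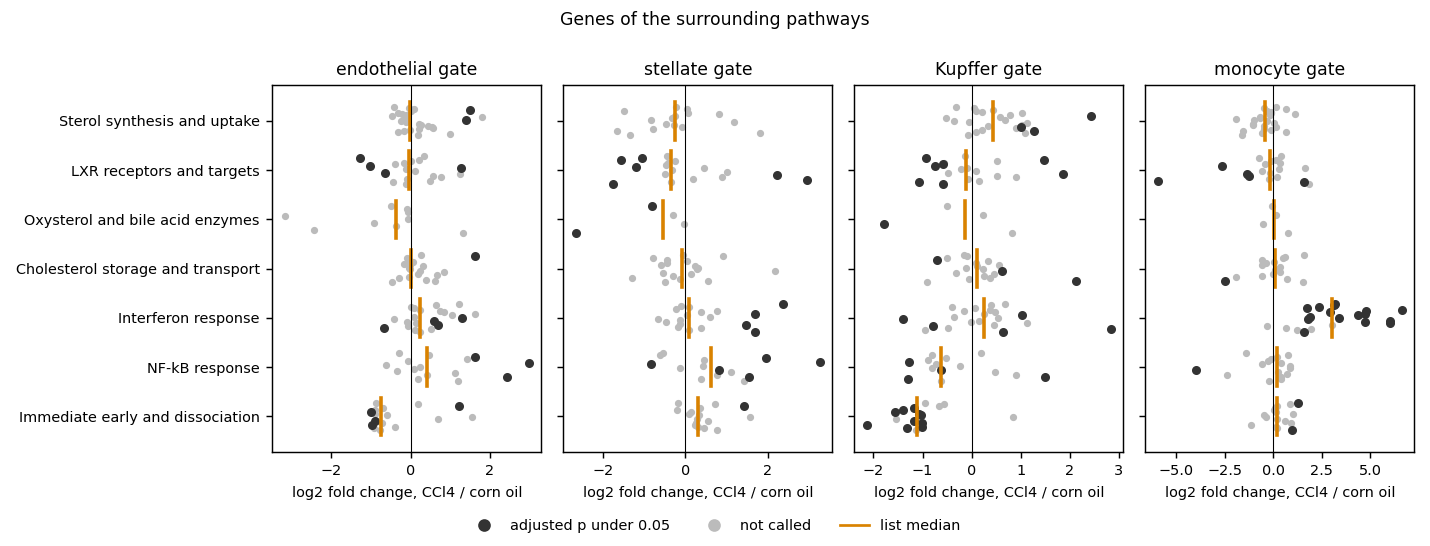
Fitted log2 fold change (CCl4 over corn oil, x axes that differ between gates) of each tested gene of 7 lists, 1 point per gene, dark where the adjusted p is under 0.05 and grey where not, with the list median as an orange bar. The interferon list lies to the right in the monocyte gate, with a median of 3.01, and the immediate early list to the left in the Kupffer gate, with a median of -1.11.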

How the data were processed

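Per the file headers, the authors counted UMIs per gene and called cell with the BD WTA Rhapsody Analysis Pipeline 1.9.1 on GRCm38 with GENCODE M19 and deposited whole counts after error correction; no aligner is named there. Library totals were 45408857 to 55529871 UMIs. The labels put all 4 samples in 1 batch, while the headers give the CCl4 1 table another analysis date, and what that date stands for cannot be told apart from the mouse. The members and lists were chosen with earlier results of these data known.

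Cells were gated by UMIs as described, cells in more than 1 gate were dropped, and no doublet caller was run. UMIs were summed per gate and mouse and fitted with edgeR 4.0.16 (quasi-likelihood, TMM, filterByExpr, R 4.3.3) with Benjamini-Hochberg adjustment over all genes of a contrast. A gene was called at an adjusted p under 0.05. SE is the fitted log2 value divided by the root of F. Gate differences came from 1 fit of 16 sums with the mouse as a block, and ranges within a gate from fits with the mouse as a block. DESeq2 1.42.0, its size factors, no filter on low counts, a 15% mitochondrial limit, stricter gates, thinning and leaving out each mouse were alternatives. Counts with known changes and a fixed dispersion were simulated for the fit of each gate and of the Kupffer ranges. Nearly all signs and the median size of the raised changes were recovered. Only well-counted genes were given changes, and the gate differences were not simulated.

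Named list genes were at most 3 per list and gate, the called genes of largest change with a mean of at least 10 CPM, and further called genes are named where few were called; some list genes are not reported here. Mice with the same number correlated in their deviations by 0.08, -0.0024, 0.09 and 0.17 in endothelial, stellate, Kupffer and monocyte cells, so the numbers were not taken as pairs. Intervals and floors cover counting error only. Python 3.11.15 was used.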

Additional observations from a re-analysis of the deposited data

Results flagged for a closer look

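Abca1 averaged 160 CPM in CCl4 endothelial cells, above both corn oil mice, and was below both in the stellate and monocyte gates. Its endothelial values came close, at 155 CPM in CCl4 2 and 145 CPM in corn oil 2 (log2 fold change 0.48 ± 0.29). Mylip averaged 50.3 CPM in the CCl4 monocyte gate, above both corn oil mice, and was below both in the endothelial, stellate and Kupffer gates. The corn oil monocyte gate held only 16 and 9 Mylip UMIs. It also differed in makeup, with 2831 to 3962 CPM of Kupffer markers against 397 to 422 CPM in CCl4 mice. Gpr183 averaged 4.99 CPM in CCl4 stellate cells and 3.18 CPM in CCl4 Kupffer cells, above both corn oil mice in each, and was below both in endothelial cells; the stellate values rest on 20 and 6 UMIs in CCl4 and 3 and 1 in corn oil mice, and the Kupffer values on 10 and 10 against 0 and 0. In each case both CCl4 mice lay above both corn oil mice in a gate and below both in another gate. The difference between the gates was not tested.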

How the results depend on the processing

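With 2 mice a group, counts of called genes depended on the fit. Over all genes the counts were 726, 916, 1522 and 557 in endothelial, stellate, Kupffer and monocyte cells, against 1482, 609, 873 and 903 by DESeq2 and 2302, 1577, 2321 and 2061 with no filter on low counts. Leaving out 1 mouse, where the lone mouse of an arm is assumed to vary like the others, gave 183 to 894 endothelial, 107 to 1345 stellate, 585 to 1464 Kupffer and 0 to 1658 monocyte genes; the lowest came from leaving out a CCl4 mouse, and 0 from either (711 and 697 at an unadjusted p under 0.05). With the replicate numbers as a block, which the data do not bear out as pairs, endothelial counts were 2051 genes, 5 members and 43 list genes; the block moved no other count by more than 1.5 times. By DESeq2, 5 of 7 members tested were called in endothelial, 1 of 4 in Kupffer and 1 of 6 in monocyte cells. Beside them stood 1482 of 13388, 873 of 9918 and 903 of 10191 genes that passed the filter. With no filter 6 endothelial members and 1 monocyte member were called, beside 2302 and 2061 of all genes. This contrast chose the members, so nothing is read from their counts. List genes called were 31 endothelial by DESeq2, 49, 32, 53 and 44 with no filter, 9 stellate with the 15% mitochondrial limit, and with a mouse left out 6 to 15, 1 to 28, 18 to 38 and 0 to 36. Within gates, DESeq2 called 1 member between stellate ranges, the Kupffer ranges gave 1 member with other gates' markers left out, 2 after thinning and 0 to 1 with a mouse left out, and the endothelial ranges 1 to 2. The mean shares of CCl4 cells with a Ch25h UMI, 12.9% of endothelial and 14.2% of stellate cells, became 8.09% and 10.3% after thinning. Directions that turned were of values near 0 or of the corn oil monocyte gate and genes with few UMIs. Over left-out mice in corn oil mice, Cyp7b1 ranged from -8.64 to 2.99 for monocyte minus endothelial, -5.30 to 5.03 for monocyte minus Kupffer, -6.51 to 11.08 for monocyte minus stellate and -1.21 to 6.05 for Kupffer minus stellate, lowest without corn oil 1. Abca1 ranged from -0.84 to 0.069 for monocyte minus Kupffer, Apoe from -0.039 to 0.99 for monocyte minus stellate, and Ch25h from -8.58 to 0.23 for monocyte minus endothelial. Ch25h was also 0 by DESeq2 for Kupffer minus stellate, both without UMIs, and 0.068 for monocyte minus endothelial with other gates' markers left out, where Gpr183 was -0.45; that setting also dropped corn oil 2 from the monocyte gate. In CCl4 mice Abcg1 for monocyte minus endothelial was 0.091 with no filter and -0.099 to 0.097 with a mouse left out, and Mylip for monocyte minus stellate 0.0015 with the 15% limit. Between ranges, left-out mice gave -0.12 to 0.060 for Abca1 in endothelial and -0.19 to 0.15 for Abcg1 in Kupffer cells. The cause of these shifts was not tested. The stellate ranges could not be fitted without a mouse, and the corn oil 2 monocyte gate had under 20 cells under stricter gates, so these were not run. Few UMIs limit Hsd3b7 in all gates, Kupffer Ch25h, and Ch25h, Cyp7b1, Gpr183 and Mylip in the corn oil monocyte gate.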

Other observations

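Beyond the 4 gates, Gpr183 was found in lymphoid and dendritic cells. Conventional dendritic cells had 273 and 190 CPM in CCl4 mice and 126 and 170 CPM in corn oil mice. T and NK cells had 120 and 208 CPM in CCl4 mice against 52.1 and 92.1 CPM in corn oil mice, and plasmacytoid dendritic cells 110 and 67.7 CPM against 88.4 and 114 CPM. Macrophages with C1q genes outside the Kupffer gate had 37.6 and 47.2 CPM in CCl4 mice, above the 25.1 and 10.2 CPM in corn oil mice. The 29 B cells of corn oil 2 had 248 CPM, and the other mice had fewer than 20 B cells each.

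The C1q macrophages also carried the efflux genes, with 366 and 286 CPM of Abca1 in CCl4 mice against 472 and 541 CPM in corn oil mice, and 11950 and 10936 CPM of Apoe against 10093 and 8123 CPM. Apoe was thus higher in both CCl4 mice in these cells and lower in both in the Kupffer gate. Cholangiocytes, the bile duct cells, had 23.7 and 12.8 CPM of Cyp7b1 in CCl4 mice, from 14 and 6 UMIs, against 1.76 CPM in corn oil 2, from 1 UMI; corn oil 1 had fewer than 20 such cells. Ch25h reached at most 15.97 CPM, from 7 UMIs, in the C1q macrophages of corn oil 1, and 17.1 CPM, from 5 UMIs, in the T and NK cells of CCl4 2.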
